A study of Mus musculus with 6 samples.

Results

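The genes described here carry out collagen hydroxylation, folding and propeptide processing: *P4ha1*, *P4ha2*, *P4ha3*, *Plod1*, *Plod2*, *Plod3*, *Serpinh1*, *Bmp1*, *Adamts2* and *Pcolce*. They were chosen by name as a list of 10 genes, all of which were found among the 17441 genes listed in any of the 6 libraries. Sequencing covered mRNA from the part of the mouse heart below the ligature, taken 3 days after surgery, in 3 groups of 2 libraries each. The groups were wild-type mice after a sham operation (WT Sham), wild-type mice whose left anterior descending artery was tied off to cause a myocardial infarction (WT MI), and *Card9* knockout mice after the same operation (*Card9* KO MI). All mice were male, on the C57BL/6 background and 12 weeks old by the labels, and the methods describe littermate and C57BL/6 mice as wild-type controls. The construction of the knockout allele and the number of mice behind each library were not given in the sources used here, so the tests measure only the spread between these libraries. Sham-operated knockout mice were not analysed here, so in a comparison of *Card9* KO MI with WT Sham the genotype cannot be told apart from the infarction.

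*Card9*, which encodes a signaling adaptor of myeloid cells, was read at 0.99 and 1.03 FPKM in the WT Sham libraries and at 3.39 and 5.08 in the WT MI libraries. The 2 libraries labelled *Card9* KO MI, called KO-labelled below, read 9.85 and 6.94 FPKM. The targeted gene was thus not lower there than in WT MI, and whether the counted part of the gene lies outside the deleted part was not tested. Every direction given for this group therefore rests on its label. FPKM, the unit of all levels below, counts fragments relative to the length of the transcript and to the mapped fragments of the library. An estimated 3012048 to 4296455 fragments stood behind each library. The heart was recognizable in all libraries by its cardiomyocyte markers, whose summed level over 10 genes ranged from 25730 to 50490 FPKM.

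Fibrillar collagens are made as procollagen in the endoplasmic reticulum. Prolyl 4-hydroxylases modify proline so that the triple helix is stable at body temperature, lysyl hydroxylases modify lysine for glycosylation and cross-linking, and both need oxygen, iron, 2-oxoglutarate and ascorbate. The chaperone HSP47 then binds the folded helix, and after secretion proteases remove the propeptides so that fibrils can form. In the infarcted heart this pathway serves the fibroblasts and myofibroblasts that build the scar.

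The subunits of prolyl 4-hydroxylase that carry the active site are encoded by *P4ha1* (chr10:58786044-58836052, plus strand), *P4ha2* (chr11:53913597-53945167, plus strand) and *P4ha3* (chr7:107434030-107468209, plus strand), with positions on mm9. The promoters of these 3 genes are shown because their RNA levels moved in different ways in these libraries. Each stretch runs from 250 bases before to 50 bases after the start of the gene as RefSeq gives it on GRCm38.p6, on the plus strand, at chr10:59323046-59323345 for *P4ha1*, chr11:54100674-54100973 for *P4ha2* and chr7:100285270-100285569 for *P4ha3*. Capitals mark the hypoxia response core (ACGTG or GCGTG on either strand) in *P4ha1* and *P4ha2*, and the Sp1 box (GGGCGG on either strand, with overlapping copies) in *P4ha3*.
P4ha1: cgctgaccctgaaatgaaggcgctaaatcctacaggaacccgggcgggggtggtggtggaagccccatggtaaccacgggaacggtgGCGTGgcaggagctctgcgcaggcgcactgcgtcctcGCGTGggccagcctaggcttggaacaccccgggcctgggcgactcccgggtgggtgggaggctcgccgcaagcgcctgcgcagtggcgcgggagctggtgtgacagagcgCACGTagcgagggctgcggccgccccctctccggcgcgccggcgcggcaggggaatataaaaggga
P4ha2: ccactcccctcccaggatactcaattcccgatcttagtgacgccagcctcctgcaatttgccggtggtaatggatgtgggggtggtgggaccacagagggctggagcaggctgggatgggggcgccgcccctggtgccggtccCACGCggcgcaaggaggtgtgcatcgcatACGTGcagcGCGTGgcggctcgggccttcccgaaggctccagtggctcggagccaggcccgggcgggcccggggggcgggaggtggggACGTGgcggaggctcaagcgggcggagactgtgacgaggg
P4ha3: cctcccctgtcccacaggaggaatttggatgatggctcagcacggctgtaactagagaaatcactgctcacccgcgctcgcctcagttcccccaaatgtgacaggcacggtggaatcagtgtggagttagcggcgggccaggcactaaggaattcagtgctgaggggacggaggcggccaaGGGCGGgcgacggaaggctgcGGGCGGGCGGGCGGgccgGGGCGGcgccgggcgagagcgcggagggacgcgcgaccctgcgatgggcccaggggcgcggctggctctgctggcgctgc
The window of *P4ha1* held 3 hypoxia response cores and that of *P4ha2* held 4, whereas none was found in that of *P4ha3*. A core of this kind occurs in 43.8% of 32851 RefSeq promoters of the same 300 bases. The window of *P4ha3* held 5 Sp1 boxes, against 2 in *P4ha1* and 4 in *P4ha2*, and 35.7% of all promoters hold at least 1. Promoters were matched for 8 of the 10 genes. Among the other matched genes, *Plod3* held 4 hypoxia response cores, *Plod1* held 2, *Serpinh1* and *Pcolce* held 1 each, and *Adamts2* held none. *Adamts2* held 5 Sp1 boxes, as many as *P4ha3*, *Plod1* held 3, *Serpinh1* and *Pcolce* held 1 each, and *Plod3* held none. The CCAAT box, the TATA box, the heat shock element and the palindromic SMAD box were searched as well. Of these, *P4ha1* and *Plod1* held 1 TATA box each, *P4ha2* 1 heat shock element and *Plod3* 1 CCAAT box. The shares count promoters with at least 1 match, so they do not say whether the counts per window are unusual. All of these are matches of letters and not measured sites.

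The first comparison asks how the pathway differed between infarcted and sham-operated hearts of WT mice. Of the 10 genes, 9 were higher in WT MI and none was lower by limma at a Benjamini-Hochberg adjusted p below 0.05, while 27.7% of the 13120 tested genes were called higher. The median log2 fold change, measured on FPKM + 1, was 1.35 over the 10 genes and 0.19 over all tested genes. All 10 genes passed the filter of 1 FPKM in at least 2 libraries, but *P4ha3* passed only through the infarct libraries, and without it 8 of 9 genes were higher. *P4ha2* was the gene that did not pass the test. FPKM scaling set the size of the smaller changes: upper-quartile scaling moved the median of all genes to −0.03, and 6 of the 10 genes were then called, without *P4ha1*, *Plod1* and *Plod2*.

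**Figure D1:**
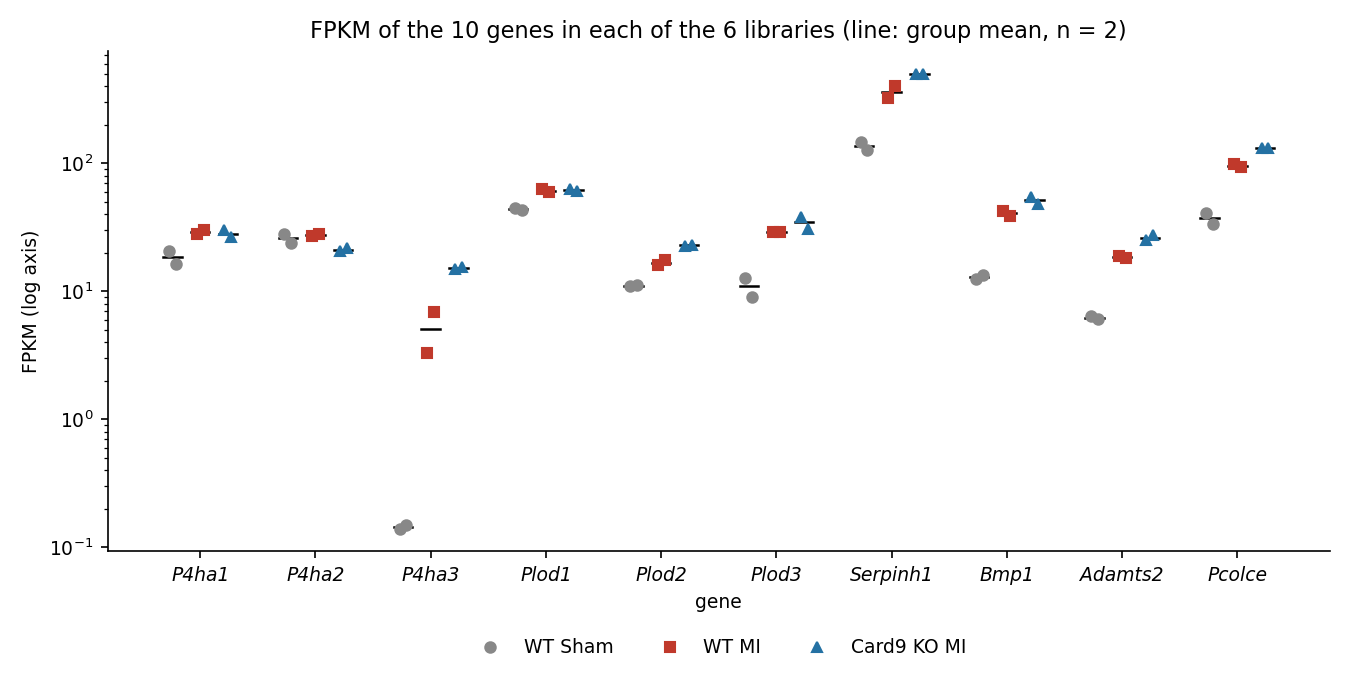
FPKM (log axis) of the 10 genes in the 2 libraries of each group, with a line at the group mean. Both WT MI libraries lie above both WT Sham libraries for 9 genes, and for 48.3% of the 13120 tested genes. *P4ha3* spans from 0.14 to 15.41 FPKM.

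*P4ha1*, the most widely expressed of the 3 subunits, was read at 20.78 and 16.52 FPKM in the sham libraries, 28.27 and 30.13 in those of WT MI and 30.02 and 26.67 in the KO-labelled ones. The WT MI and KO-labelled libraries lay above WT Sham and overlapped each other. *P4ha1* rose 1.57-fold from WT Sham to WT MI (log2 fold change 0.63 ± 0.14 SE, limma adjusted p = 0.00933). The rise missed the threshold with upper-quartile scaling (adjusted p = 0.0515) and without WT MI replicate 2 (adjusted p = 0.0582). Between KO-labelled and WT infarcts its log2 fold change was −0.04, with a 95% interval from −0.36 to 0.27.

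*P4ha2*, the second subunit, was read at 28.07 and 24.11 FPKM in the sham libraries, 27.13 and 28.24 in those of WT MI and 20.63 and 21.82 in the KO-labelled ones. WT Sham and WT MI overlapped, and the KO-labelled libraries were below all others. The log2 fold change from WT Sham to WT MI was 0.09 (limma adjusted p = 0.594), and its sign was the same in 13 of 17 other settings, with a lowest value of −0.16. Its level in the KO-labelled libraries was 23.3% below WT MI (log2 fold change −0.37 ± 0.12 SE), with an unadjusted limma p of 0.0134 and an adjusted p of 0.142. Against WT Sham the log2 fold change was −0.28 (adjusted p = 0.0762), and it was called lower with upper-quartile scaling (−0.57, adjusted p = 0.00488), quantile normalization (−0.52, adjusted p = 0.007) and scaling without the 100 most abundant genes (−0.45, adjusted p = 0.0145).

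*P4ha3*, the third subunit, was read at 0.14 and 0.15 FPKM in the sham libraries, 3.29 and 6.85 in those of WT MI and 14.86 and 15.41 in the KO-labelled ones. The 3 groups did not overlap, and the WT MI libraries differed most from each other. The gene rested on an estimated 1.34 and 1.37 fragments in the sham libraries, 40.1 and 81.9 in those of WT MI and 194 and 193 in the KO-labelled ones. In fragments per sequenced fragment, estimated with the joined exons of the gene as its length, WT MI was 34.9-fold above WT Sham, with a 95% counting interval of 11.1 to 192 that covers counting error only. The sham fragments are estimates and not whole counts, so this interval is approximate. On the scale of FPKM + 1, which understates the change of a gene so low in WT Sham, *P4ha3* rose by a log2 fold change of 2.34 ± 0.27 SE (limma adjusted p = 0.000589).

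Between KO-labelled and WT infarcts, *P4ha3* was 2.99-fold higher, the largest difference of the 10 genes, with a log2 fold change of 1.48 ± 0.27 SE and a 95% interval from 0.84 to 2.11. The limma adjusted p was 0.0521, so this difference missed the threshold. It was called when 5 FPKM were added in place of 1 (adjusted p = 0.0279), with only genes of a mean FPKM of at least 5 (0.0427), with only genes listed in all 6 libraries (0.0338) and without WT MI replicate 2 (0.047). The log2 fold change was 1.04 to 1.91 when any one library was left out, and adjusted p values of all settings lay between 0.0279 and 0.205.

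The composition of the prolyl 4-hydroxylase family differed between the groups. The share of *P4ha3* in the summed FPKM of the 3 subunits was 0.286% and 0.368% in the sham libraries, 5.61% and 10.5% in those of WT MI and 22.7% and 24.1% in the KO-labelled ones. *P4ha2* had the largest share in the sham hearts, 57.3% and 59.1%, then 46.2% and 43.3% in WT infarcts and 31.5% and 34.1% in the KO-labelled libraries. The share of *P4ha1* ranged from 40.5% to 48.2% over the 6 libraries. *P4ha3* was thus a trace of the family in sham hearts and over 20% of it in the KO-labelled ones, while the family summed to 58.69 and 65.22 FPKM in the WT infarcts against 65.51 and 63.9 in KO-labelled ones. An exact permutation test of such a share between groups of 2 cannot go below p = 0.333, so the shares are given without a test.

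**Figure D2:**
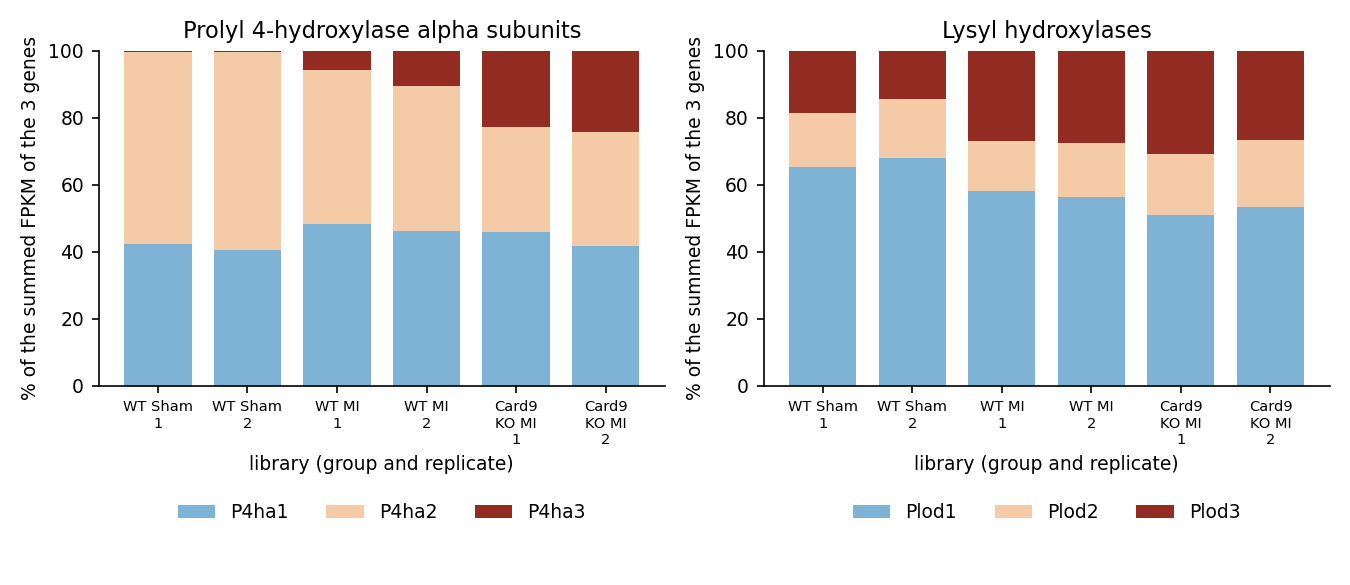
Share (%) of each gene in the summed FPKM of the 3 prolyl 4-hydroxylase alpha subunits (left) and of the 3 lysyl hydroxylases (right), with 1 bar for each library. The share of *P4ha3* is below 0.4% in both WT Sham libraries and 22.7% and 24.1% in the KO-labelled libraries.

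The beta subunit of the enzyme, protein disulfide isomerase, is encoded by *P4hb*, which also has other roles in the endoplasmic reticulum. It rose from a mean of 95.5 FPKM in WT Sham to 267 in WT MI (log2 fold change 1.47 ± 0.09 SE, limma adjusted p = 4.7e-05). The ratio of *P4hb* to the summed alpha subunits was 1.92 and 2.37 in the sham libraries, 4.58 and 4.07 in those of WT MI and 4.91 and 4.48 in the KO-labelled ones. *P4hb* was thus further above the alpha subunits in every infarct library than in the sham libraries.

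Lysyl hydroxylases act on different parts of procollagen. *Plod1* (chr4:147283862-147310876, minus strand) encodes the enzyme for lysines of the helix, *Plod2* (chr9:92437061-92503266, plus strand) that for the telopeptides, which sets the kind of cross-link, and *Plod3* (chr5:137462889-137472518, plus strand) an enzyme that also transfers sugars. *Plod3* overlaps *Znhit1* on the opposite strand, and whether reads were counted by strand was not given in the sources used here.

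*Plod1* was the most abundant lysyl hydroxylase in every library, at 45.08 and 43.31 FPKM in the sham libraries, 62.68 and 59.98 in those of WT MI and 63.48 and 61.27 in the KO-labelled ones. WT MI and KO-labelled libraries lay above WT Sham and overlapped each other. It rose from WT Sham to WT MI by a log2 fold change of 0.46 ± 0.09 SE (limma adjusted p = 0.00607), a call lost with upper-quartile scaling (adjusted p = 0.094). The log2 fold change between KO-labelled and WT infarcts was 0.02, with a 95% interval from −0.19 to 0.24.

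*Plod2* was read at 10.96 and 11.26 FPKM in the sham libraries, 15.96 and 17.5 in those of WT MI and 22.8 and 22.98 in the KO-labelled ones. The 3 groups followed each other without overlap. The rise from WT Sham to WT MI (log2 fold change 0.55 ± 0.11 SE, limma adjusted p = 0.00757) missed the threshold with upper-quartile scaling (adjusted p = 0.0619), with quantile normalization (0.0644) and without WT MI replicate 2 (0.0546). The difference between KO-labelled and WT infarcts was 0.43 on the log2 scale, with an unadjusted p of 0.00555 and a limma adjusted p of 0.104.

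*Plod3* was read at 12.84 and 9.1 FPKM in the sham libraries, 28.99 and 29.2 in those of WT MI and 38.43 and 30.8 in the KO-labelled ones. It had the largest rise of the lysyl hydroxylases from WT Sham to WT MI, 2.65-fold (log2 fold change 1.35 ± 0.17 SE, limma adjusted p = 0.000919). Against WT MI the KO-labelled libraries were higher by 0.24 on the log2 scale (adjusted p = 0.501), with a 95% interval from −0.17 to 0.64. In the summed FPKM of the 3 lysyl hydroxylases, the share of *Plod3* was 18.6% and 14.3% in WT Sham and 26.9% and 27.4% in WT MI, and that of *Plod1* was 65.4% and 68.0% in WT Sham and 58.2% and 56.2% in WT MI. In the KO-labelled libraries *Plod3* had 30.8% and 26.8% and *Plod1* 50.9% and 53.3%. The share of *Plod2* was between 14.8% and 17.7% in the WT libraries and 19.1% ± 1.2 (SD, n = 2) in KO-labelled ones.

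*Serpinh1* (chr7:106493885-106501740, minus strand) encodes HSP47, the collagen-specific chaperone of the endoplasmic reticulum. It was the most abundant of the 10 genes in every library, at 147.35 and 127.92 FPKM in the sham libraries, 326.17 and 402.28 in those of WT MI and 504.59 and 497.08 in the KO-labelled ones. Both libraries of each group lay apart from those of the other groups. *Serpinh1* rose 2.65-fold from WT Sham to WT MI (log2 fold change 1.39 ± 0.12 SE, limma adjusted p = 0.00018). It was 1.38-fold higher in the KO-labelled libraries than in WT infarcts (log2 fold change 0.47 ± 0.12 SE), with an unadjusted p of 0.00554 and a limma adjusted p of 0.104. It made up 44.8% to 56.2% of the summed FPKM of the 10 genes.

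Outside the cell, *Bmp1* (chr14:70874364-70920067, minus strand) encodes the procollagen C-proteinase, *Pcolce* (chr5:138046331-138055012, minus strand) the enhancer that helps it cleave, and *Adamts2* (chr11:50415586-50621075, plus strand) the N-proteinase. *Pcolce* overlaps *Fbxo24* on the same strand in the annotation, and *Adamts2* overlaps 3 noncoding genes on the opposite strand. All 3 genes rose from WT Sham to WT MI, by 2.57- to 3.12-fold.

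*Bmp1* was read at 12.57 and 13.51 FPKM in the sham libraries, 42.53 and 38.97 in those of WT MI and 54.8 and 48.16 in the KO-labelled ones. It rose 3.12-fold in WT MI (log2 fold change 1.57 ± 0.11 SE, limma adjusted p = 8.13e-05), the largest fold after that of *P4ha3*. In the KO-labelled libraries it was 1.26-fold above WT MI (unadjusted p = 0.021, limma adjusted p = 0.167).

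*Pcolce* was read at 41.33 and 33.63 FPKM in the sham libraries, 98.74 and 94.07 in those of WT MI and 131.8 and 132.24 in the KO-labelled ones. It rose 2.57-fold in WT MI (log2 fold change 1.35 ± 0.11 SE, limma adjusted p = 0.000152). The groups did not overlap, and the difference between KO-labelled and WT infarcts was 1.37-fold (unadjusted p = 0.00451, limma adjusted p = 0.0972).

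*Adamts2* was read at 6.42 and 6.08 FPKM in the sham libraries, 19.09 and 18.34 in those of WT MI and 25.34 and 27.38 in the KO-labelled ones. It rose 2.99-fold in WT MI (log2 fold change 1.44 ± 0.12 SE, limma adjusted p = 0.00013). The groups again did not overlap, with a 1.41-fold difference between KO-labelled and WT infarcts (unadjusted p = 0.00393, limma adjusted p = 0.0943). The ratio of *Bmp1* to *Adamts2* ranged from 1.76 to 2.23 and that of *Pcolce* to *Bmp1* from 2.32 to 3.29 over the 6 libraries.

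The second comparison asks how infarcted hearts labelled *Card9* KO differed from infarcted hearts of WT mice. None of the 10 genes passed the limma test, while 0.816% of all tested genes were called higher. At an unadjusted p below 0.05, 6 genes were higher (*P4ha3*, *Plod2*, *Serpinh1*, *Bmp1*, *Pcolce* and *Adamts2*) and *P4ha2* alone was lower, against 11.5% of all genes higher and 8.57% lower. Both KO-labelled libraries lay above both WT MI libraries for 7 genes and below them for 1 gene, whereas 30.8% and 21.9% of all tested genes did so. The median log2 fold change was 0.38 over the 10 genes and 0.04 over all tested genes. The screen of the study, a fold change of at least 2 with a divergence probability of at least 0.8, recomputed on these values, called 1 of the 10 genes higher, *P4ha3*, and 125 of the 17164 genes listed in either group, or 0.728%.

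In the third comparison, of the KO-labelled libraries with WT Sham, 9 genes were higher and none was lower, against 34.8% of all genes called higher, and without *P4ha3*, which passed the filter only through the infarct libraries, 8 of 9 were. It shares its sham libraries with the first comparison. *P4ha3* was 104-fold higher in fragments, with an approximate 95% counting interval of 33.8 to 568. It had the highest log2 fold change, 3.82 ± 0.27 SE (limma adjusted p = 4.18e-05). *Adamts2*, *Bmp1*, *Serpinh1* and *Pcolce* followed with 1.92, 1.90, 1.86 and 1.80, and *Plod3* with 1.58. *Plod2* was at 0.98, *P4ha1* at 0.59 and *Plod1* at 0.49. The call for *P4ha1* (adjusted p = 0.00908) was lost with upper-quartile scaling, quantile normalization and without *Card9* KO MI replicate 1, with adjusted p from 0.0576 to 0.102, and that for *Plod1* with upper-quartile scaling (adjusted p = 0.119).

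**Figure D3:**
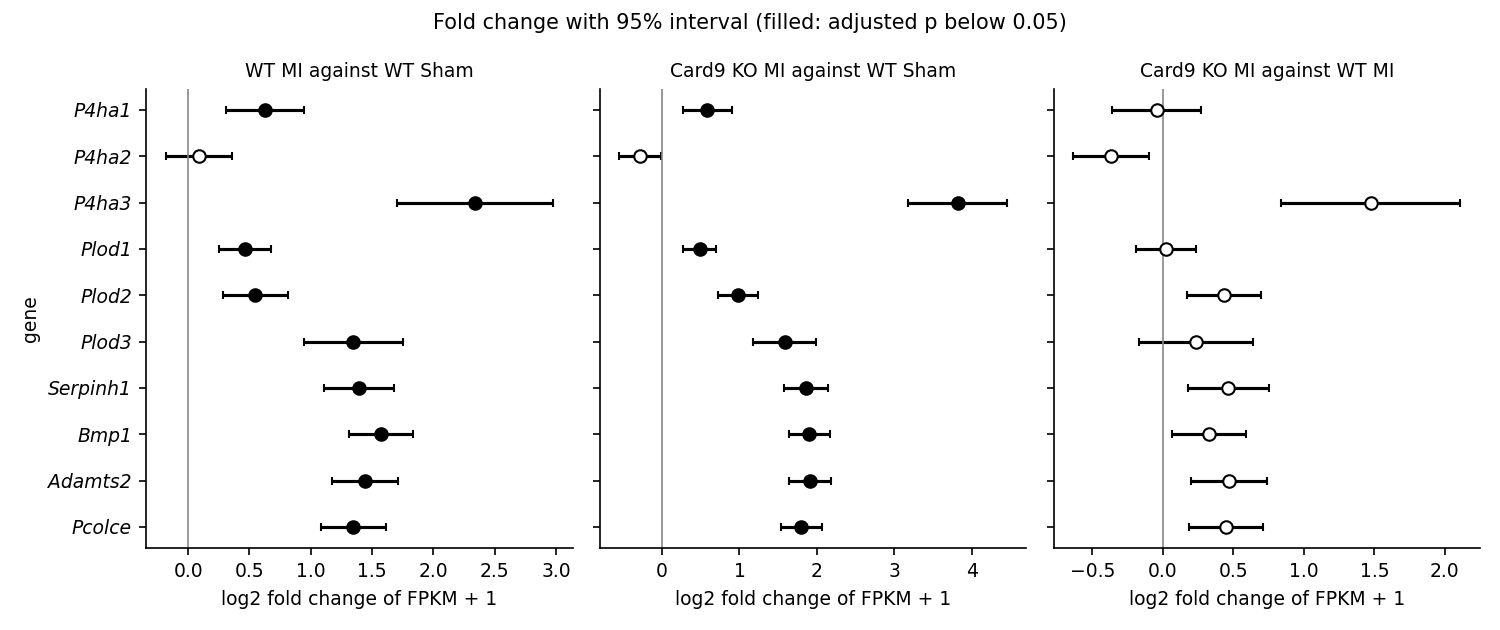
Log2 fold change of FPKM + 1 with its 95% interval for the 10 genes in the 3 comparisons, each on its own axis, filled where the limma adjusted p is below 0.05. In the 2 comparisons with WT Sham 9 genes are filled, and none is filled between *Card9* KO MI and WT MI, where *P4ha3* is at 1.48 and *P4ha2* at −0.37.

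The order of the levels differed between groups. *Serpinh1* came first in each group and *P4ha3* last. In WT Sham it was followed by *Plod1*, *Pcolce*, *P4ha2*, *P4ha1*, *Bmp1*, *Plod2*, *Plod3* and *Adamts2*, with *Plod2* and *Plod3* overlapping. In WT MI the order was *Pcolce*, *Plod1*, *Bmp1*, *P4ha1*, *Plod3*, *P4ha2*, *Adamts2* and *Plod2*, with *P4ha1* and *Plod3* overlapping. In the KO-labelled libraries *P4ha2* stood just before *P4ha3*, behind *Plod2*, and *P4ha1* and *Adamts2* overlapped. *Pcolce* was above *Plod1* in both infarct groups.

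The pathway works on procollagen, whose main chains *Col1a1*, *Col1a2* and *Col3a1* were 10.1-, 8.0- and 9.31-fold higher in mean FPKM in WT infarcts than in sham hearts. Of the 10 genes *P4ha3*, at 34.9-fold in estimated fragments, was above these folds, and the other 9 were below them, at most 3.12-fold. The fold of *P4ha3* rests on an estimated 2.72 sham fragments, with an approximate 95% counting interval of 11.1 to 192. On FPKM + 1, which understates its change, *P4ha3* had a log2 fold change of 2.34, below the 3.29, 2.94 and 3.18 of the 3 chains. The FPKM summed over *Col1a1*, *Col1a2* and *Col3a1*, the main chains of types I and III, was 125.4 and 115.8 in the sham libraries, 939.7 and 1295 in those of WT MI and 2185 and 2039 in the KO-labelled ones. For each 100 FPKM of these chains, *Serpinh1* had 117 and 110 FPKM in the sham libraries, 34.7 and 31.1 in those of WT MI and 23.1 and 24.4 in the KO-labelled ones. It was thus above the 3 chains together in sham hearts and well below them in every infarct library.

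Relative to the same chains, *P4ha2* was 8.52-fold lower in infarcted than in sham WT hearts, the largest reduction of the 10 genes, and *Bmp1* was 2.88-fold lower, the smallest. Between WT MI and the KO-labelled libraries the reduction was 2.52-fold for *P4ha2*, 1.99-fold for *P4ha1*, 1.91-fold for *Plod1* and 1.38-fold for *Adamts2*. *P4ha3* was the gene that moved the other way, with 0.112 and 0.129 FPKM in the sham libraries, 0.35 and 0.529 in those of WT MI and 0.68 and 0.756 in the KO-labelled ones for each 100 FPKM of the chains. These ratios were not tested.

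**Figure D4:**
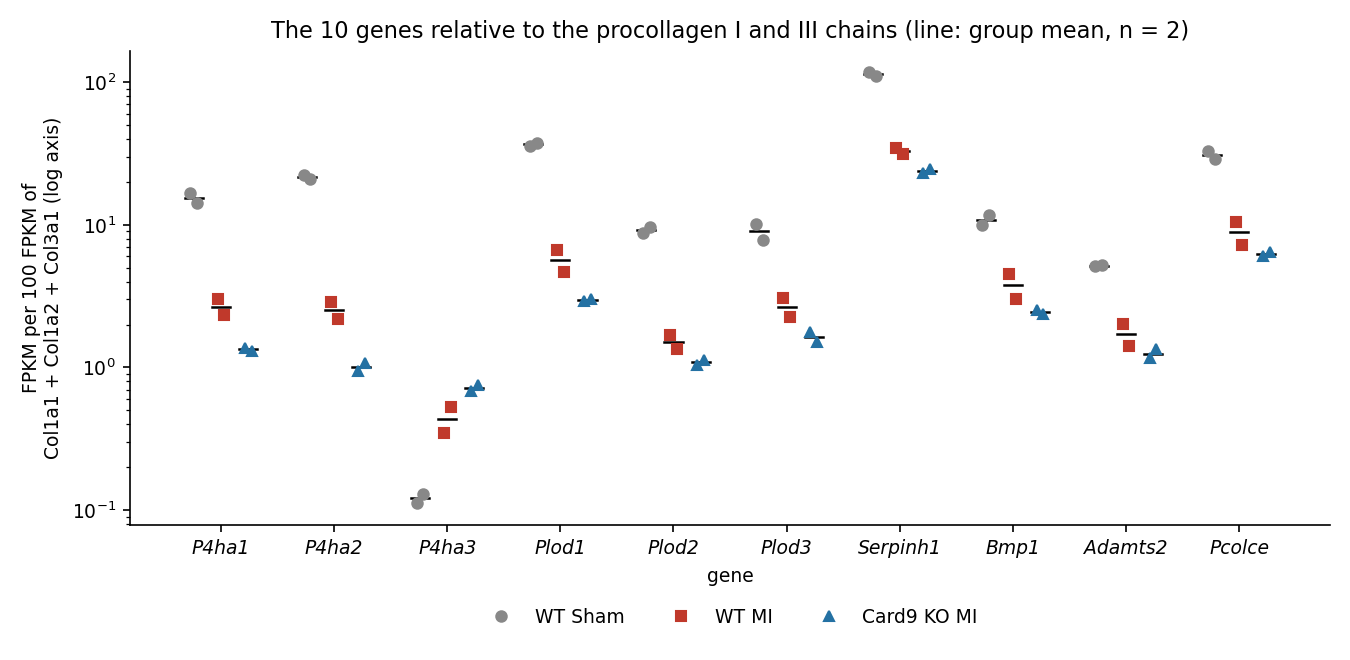
FPKM of each of the 10 genes for each 100 FPKM summed over *Col1a1*, *Col1a2* and *Col3a1* (log axis), with 2 libraries a group and a line at the mean. For 9 genes the WT Sham libraries are highest and the KO-labelled libraries lowest, and for *P4ha3* the order is reversed.

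In tissue RNA, a change in the number of cells of a type and a change in RNA per cell cannot be told apart. Fibroblast markers were among the genes that differed: their summed level over 12 genes was 476.1 and 453.5 FPKM in the sham libraries, 715.7 and 890.4 in those of WT MI and 1276 and 1285 in the KO-labelled ones. Of these markers, 10 rose from WT Sham to WT MI. *Fap* was among them at 0.7 and 0.85 FPKM in WT Sham, and passed the filter only through the infarct libraries. *Thy1* (log2 fold change 1.16, limma adjusted p = 0.0213) and *Postn* (1.57, adjusted p = 0.0161), which encodes a matrix protein of activated fibroblasts, were higher in the KO-labelled libraries than in WT MI. These calls were lost in 5 and 4 of 17 other settings, among them those that left out replicate 1 of WT MI or of *Card9* KO MI. Most of the step between the infarct groups lay in *Postn*, and without it, a choice made after its values were seen, the other 11 markers summed to 532 and 649.5 FPKM in WT infarcts and 650.5 and 658.4 in KO-labelled ones, so that WT MI replicate 2 was close to both. *Pdgfra* was at −0.52 (adjusted p = 0.0939) in the latter comparison.

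Against 8 fibroblast markers (*Pdgfra*, *Tcf21*, *Dcn*, *Lum*, *Dpt*, *Thy1*, *Pdgfrb* and *Ddr2*), *Serpinh1* had 34.5 and 30.4 FPKM for each 100 FPKM in the sham libraries, 70.8 and 70.2 in those of WT MI and 93.7 and 91.6 in the KO-labelled ones. *Dcn* held most of that sum. Without it, a choice made after its values were seen, the ratio of *Serpinh1* between KO-labelled and WT infarcts was 1.02 instead of 1.31, that of *Plod2* was 1.01 instead of 1.30, and that of *P4ha3* was 2.25 instead of 2.93. The ratios of *Pcolce*, *Adamts2*, *Bmp1* and *Plod3* were 1.01, 1.04, 0.928 and 0.876 without *Dcn*, instead of 1.29, 1.33, 1.19 and 1.12. For these genes, *Serpinh1* and *Plod2*, a ratio above 1.1 thus depended on whether *Dcn* was in the sum. Those of *P4ha1*, *P4ha2* and *Plod1* were below 1 with either sum.

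Markers of other cell types also differed between the groups. Macrophage markers summed over 12 genes were at 282.8 and 248.5 FPKM in the sham libraries, 884.8 and 1068 in those of WT MI and 1841 and 1359 in the KO-labelled ones. Smooth muscle and pericyte markers, 6 genes that include the myofibroblast actin *Acta2*, were at 176.4 to 203.5, 236.5 to 254.9 and 467.5 to 483.9 FPKM in the same order. In the KO-labelled libraries *Acta2* (log2 fold change 1.19, limma adjusted p = 0.0388) and *Tagln* (1.47, adjusted p = 0.00675) were higher than in WT MI, with calls that were lost in 8 and 1 of 17 other settings. Summed neutrophil markers, 7 genes, were at 5.4 to 7.87 FPKM in WT Sham, 97.98 to 227.3 in WT MI and 48.53 to 61.74 in the KO-labelled libraries, with *Ly6g* not listed. Of these, *Retnlg*, *Mmp8* and *Il1r2* were below 1 FPKM in both sham libraries and passed the filter only through the infarct libraries. *S100a8* and *S100a9*, at 0.91 and 0.72 FPKM in WT Sham replicate 2, also reached the filter only with infarct libraries. Summed cardiomyocyte markers were at 49110 to 50490, 31190 to 31690 and 25730 to 29810 FPKM. Summed endothelial markers, 8 genes, ranged from 353.9 to 435.9 FPKM and epicardial markers, 6 genes, from 6.29 to 11.18 over all libraries. From WT Sham to WT MI, 11 of 12 macrophage, 7 of 7 neutrophil, 3 of 6 smooth muscle and pericyte, 2 of 8 endothelial and 1 of 3 tested epicardial markers rose, and 6 of 10 cardiomyocyte, 1 smooth muscle and 1 endothelial marker fell. Over all tested genes 27.7% were called higher and 9.39% lower. The epicardial marker that rose, *Tbx18*, was at 0.94 and 1.06 FPKM in WT Sham and reached the filter only with infarct libraries. Between the infarct groups none of these markers but *Acta2* and *Tagln* was called. The part of these cell types in the levels of the 10 genes was not tested.

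The other genes of the pathway were counted from lists chosen for their function. Of 7 partners in hydroxylation and prolyl 3-hydroxylation, 5 rose from WT Sham to WT MI (*P4hb*, *P3h1*, *P3h3*, *Crtap* and *Ppib*), with a list median of 1.24 on the log2 scale, and none passed the test between KO-labelled and WT infarcts, where the median was 0.40. *P3h2* had the highest log2 fold change of that list in the latter comparison, 0.56, and *P3h4* the lowest, −0.01. *Crtap*, *P3h1* and *Ppib* encode the prolyl 3-hydroxylation complex, and their log2 fold changes between WT MI and WT Sham were 1.24, 1.33 and 1.47.

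Of 9 tested genes of collagen glycosylation, folding and export, 6 rose from WT Sham to WT MI, led by *Creb3l1*, a transcription factor of the secretory pathway, at 2.11 on the log2 scale. *Fkbp10* encodes FKBP65, a prolyl isomerase that works with the lysyl hydroxylase of *Plod2*. It was read at 8.06 and 7.9 FPKM in the sham libraries, 27.55 and 31.72 in those of WT MI and 50.71 and 47.59 in the KO-labelled ones. It was the gene of this list that was higher in the KO-labelled libraries than in WT infarcts, 1.66-fold (log2 fold change 0.71 ± 0.12 SE, limma adjusted p = 0.038). That call was lost in 11 of 17 other settings, among them with any one of the 6 libraries left out, with adjusted p up to 0.265. The ratio of *Fkbp10* to *Plod2* was 0.735 and 0.702 in the sham libraries, 1.73 and 1.81 in those of WT MI and 2.22 and 2.07 in the KO-labelled ones. *Tmem38b*, which encodes a cation channel of the endoplasmic reticulum, had the lowest value of the list against WT MI, −0.61 (adjusted p = 0.111).

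Of 4 tested genes of propeptide processing beside the 3 above, 2 rose from WT Sham to WT MI, *Pcolce2* (log2 fold change 0.64, limma adjusted p = 0.00407) and *Furin* (0.59, adjusted p = 0.00845, lost with upper-quartile scaling and without WT MI replicate 1). None passed the test between KO-labelled and WT infarcts. The N-proteinases related to *Adamts2* were low, *Adamts3* at 0.76 to 1.29 FPKM and *Adamts14* at 0.7 to 2.02 FPKM over all libraries. *Adamts2* was thus the N-proteinase gene with the highest FPKM in these hearts.

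Of 7 tested fibrillar procollagen chains, 6 rose from WT Sham to WT MI, with a median of 2.77 on the log2 scale. Between KO-labelled and WT infarcts 4 of them were higher, with a list median of 0.89: *Col1a1* (1.06, limma adjusted p = 0.0337), *Col1a2* (1.09, 0.0274), *Col5a1* (0.89, 0.0213) and *Col5a2* (0.75, 0.0432). *Col11a1*, at 1.8 and 1.67 FPKM in the KO-labelled libraries, passed the filter only through them. Its log2 fold change of 1.19 (limma adjusted p = 0.059) was the highest of the list and is part of this median. *Col3a1* was at 0.68 (adjusted p = 0.0568) and was called in 4 of 17 other settings. The calls of the 4 chains were lost in 6 to 11 of 17 other settings, among them without WT MI replicate 1 and without either KO-labelled library, with adjusted p up to 0.265. Whether the log2 fold changes of the chains differ from those of the 10 genes was not tested.

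General chaperones of the endoplasmic reticulum and hypoxia-induced genes were counted beside these lists. Of 12 general chaperones, 11 rose from WT Sham to WT MI, with a median of 1.02 and *Pdia4* highest at 1.82 on the log2 scale. Between KO-labelled and WT infarcts none was called, none had an unadjusted p below 0.05, and the median was 0.02. From WT Sham to WT MI, 27.7% of all tested genes were called higher and 9.39% lower. Of 12 hypoxia-induced genes, 4 rose and 2 fell in that comparison, from 1.87 for the glucose transporter *Slc2a1* to −0.69 for the angiogenic factor *Vegfa*. Between KO-labelled and WT infarcts none of these was called, 1 was higher and 2 were lower at an unadjusted p below 0.05, and the median was −0.15.

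**Figure D5:**
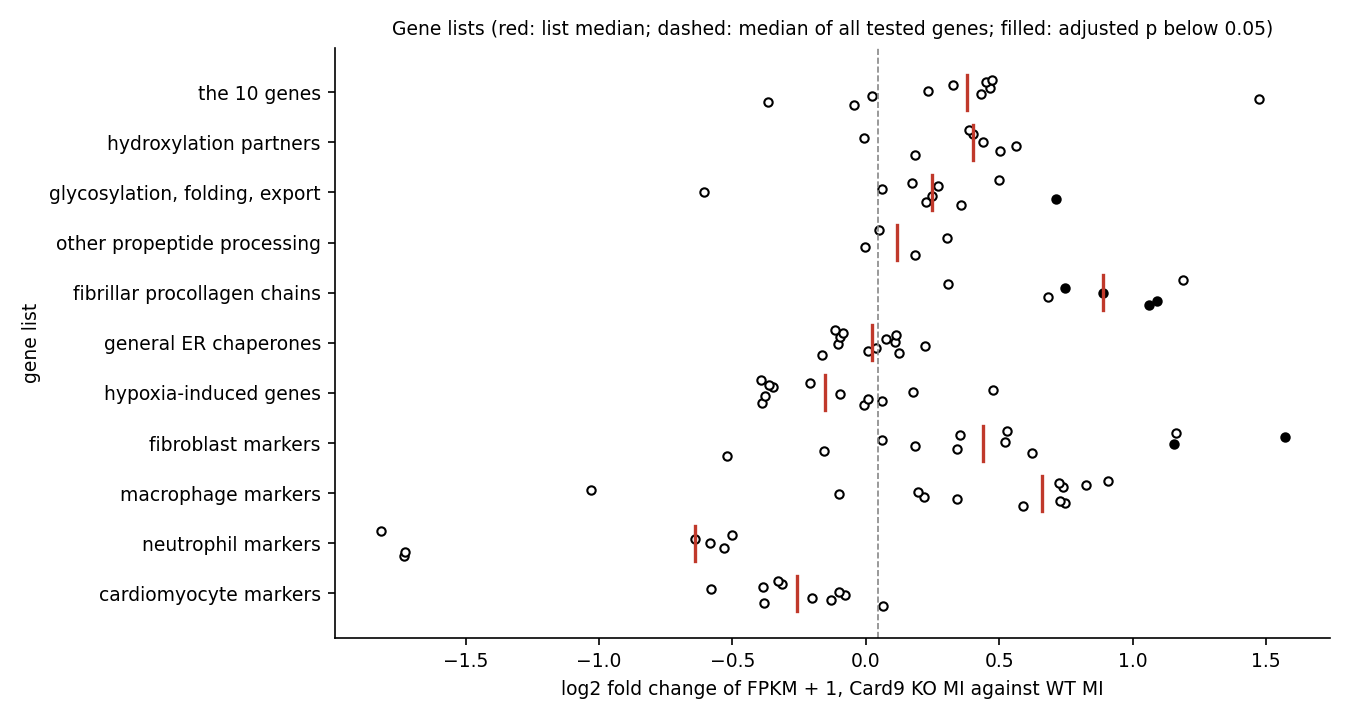
Log2 fold change of FPKM + 1 between KO-labelled and WT infarcts, with 1 point for each tested gene of a list, filled where the limma adjusted p is below 0.05. Red lines are list medians, from 0.89 for fibrillar procollagen chains to −0.64 for neutrophil markers, and the dashed line is the median of all tested genes. The chains include *Col11a1*, which passed the filter only through the KO-labelled libraries.

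The profile of each gene over the 6 libraries was set beside all tested genes by the root mean square difference of log2(FPKM + 1), after each gene was centred on its mean. *P4ha1* was nearest to *Pxn* (0.015), *Dock1* and *Galnt2*, and *P4ha2* to *Pam* (0.0092), *Atp11a* and *Ehd1*. *Pam* encodes a copper and ascorbate dependent enzyme of the secretory pathway and was read at 172.42 and 147.64 FPKM in the sham libraries, 166.66 and 170.24 in those of WT MI and 127.78 and 134.68 in the KO-labelled ones. *Pam* was picked for its likeness to *P4ha2* over these libraries, so that it was lowest in the same group follows from that choice. *P4ha3* was nearest to *Col1a2* at a much larger difference, 0.274, followed by *Ms4a7* and *Fcgr1*, which are genes of macrophages.

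The nearest genes to *Plod1* were *Eif4h*, *Tcp1* and *Stag1*, those to *Plod2* were *Pdzd4*, *Nup210* and *Tvp23a*, and those to *Plod3* were *Fam91a1*, *Csk* and *Bid*. *Serpinh1* was nearest to *Shisa5*, *Reep4* and *Was*, *Bmp1* to *Sdcbp*, *Eif1a* and *Mob3a*, *Pcolce* to *Anxa4*, *Ptbp1* and *Prr11*, and *Adamts2* to *Prkcd*, *A630001G21Rik* and *Gask1b*. Among the 10 genes themselves, *Adamts2* and *Pcolce* had the most similar profiles, 0.0875, followed by *Pcolce* and *Serpinh1*, 0.113. *Plod1* and *P4ha1* were 0.114 apart. The largest difference was between *P4ha3* and *P4ha2*, 1.69. The 6 libraries form 3 groups, so these values describe the group pattern and carry no test.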

How the data were processed

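RNA-seq of mouse heart below the ligature was analysed, with 2 libraries in each of 3 groups. The authors isolated RNA in TRIzol and selected mRNA for Illumina sequencing, and after mapping to mm9 with BWA and Bowtie2 they deposited FPKM values with 2 decimals. A large change of abundant genes shifts all other FPKM values. The annotation and the use of strand were not given in the sources used here. Genes not listed in a library were set to 0. Positions came from GENCODE on mm9 and names and promoters from RefSeq on GRCm38.p6. Depth was estimated from steps between low FPKM values, of which 72.8% to 76.2% came out whole within 0.15 fragments, so no test on counts was run. Comparisons used limma 3.58.1 in R 4.3.3 (eBayes with trend) on log2(FPKM + 1), with 3 groups in one fit, for 13120 genes with at least 1 FPKM in 2 libraries, adjusted by the Benjamini-Hochberg method over all of them. The fit was tested on simulated data. Ratios and shares were computed in Python 3.11.15. Named genes are the 10 genes, *Card9*, list genes that passed the test between the infarct groups or were highest or lowest in their list, and the 3 nearest profiles of each gene; *Pam* and other genes given with values beyond this, such as those of the 3-hydroxylation complex, *Adamts3*, *Adamts14*, *Col3a1*, *Pcolce2* and *Furin*, were named after their values were seen. The 10 genes, the lists and the tests were chosen with earlier results of these data known.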

Additional observations from a re-analysis of the deposited data

How the results depend on the processing

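With 2 libraries per group, precision is limited by their number, and *P4ha3* in WT Sham rests on about 3 fragments in all. Of 510 fits of single genes under other settings, 493 kept their side of the threshold, 10 lost a call and 7 gained one, all named above. Of 1320 fits of the other genes named with a test, 1240 kept their side, 72 lost a call and 8 gained one. Fits that kept their side could change sign where no call was made. Between KO-labelled and WT infarcts the sign was kept in 15 of 17 settings for *P4ha1* and 14 of 17 for *Plod1*. From WT Sham to WT MI it was kept in 13 of 17 for *P4ha2*. Scaling moved the median of all genes between WT MI and WT Sham from 0.19 to −0.03 (upper-quartile scaling, with 2452 genes higher and 2353 lower in place of 3637 and 1232), to −0.08 (quantile normalization, 2291 and 2450) or to 0.06 (without the 100 most abundant genes, 2867 and 1831), and the number of the 10 genes called higher was then 6, 8 and 9. Medians of *Card9* KO MI against WT Sham were 0.24, −0.02, −0.10 and 0.09, with 4569 and 1875, 3031 and 3149, 2836 and 3447, and 3633 and 2526 genes called. Between *Card9* KO MI and WT MI the calls were 107 and 77, 84 and 97, 117 and 105, and 88 and 73.

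Of the 10 genes, 1 (*P4ha3*) was called between *Card9* KO MI and WT MI with 5 FPKM added, with a mean FPKM of at least 5, with only genes listed in all libraries and by the screen of the study, and 0 to 1 with any one library left out, the 1 call being without WT MI replicate 2. Over all genes this comparison called 184, against 80 with 0.1 FPKM added, 312 with 5 added, 12 without a filter, 284 with a mean of at least 5, 297 with only genes listed in all libraries, 101 in a fit of only the groups compared, 58 without trend, 96 with a fold change of at least 2, 182 by the screen and 9 to 147 with any one library left out. Calls between WT MI and WT Sham were 1707 with a fold change of at least 2, 1177 by the screen and 2939 to 4749 with any one library left out, and for *Card9* KO MI against WT Sham they were 2544 with that fold change and 1788 by the screen, in place of 6444. Here WT MI against WT Sham had 4869 calls. The causes were not tested. The deviations of libraries with the same replicate number correlated between groups at −0.00828 to 0.0204. The labels do not say whether the numbers mark a shared day or litter, and these correlations cannot exclude it. With the replicate block 71 genes were called between *Card9* KO MI and WT MI, and the counts for the 10 genes stayed at 9, 0 and 9.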
